A study of Homo sapiens with 40 samples.

Results

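The 8 genes followed here make, change, degrade or export prostaglandin E2 (PGE2): PLA2G4A, PTGS1, PTGS2, PTGES, PTGES2, PTGES3, HPGD and ABCC4. They were chosen by name, and 7 of the 8 had a row among the 15788 genes of the table, while PTGS1 was not analysed here. RNA was measured in the immortalised bronchial epithelial cell line BEAS-2B, which was held overnight without serum and then treated for 2 h. The 40 libraries formed 10 groups of 4. ONO-AE1-329 (ONO), an agonist of the PGE2 receptor EP4, was given at 0.1 nM, 1 nM or 1 uM, the last of which the labels call maximal. Vilanterol, an agonist of the β2-adrenoceptor, was given at 100 nM, also called maximal. RNO, an inhibitor of PDE4, was given at 1 uM alone or together with each of these 4 agonist treatments. The remaining group received vehicle. By their labels the groups differ in treatment alone, and all cells are of 1 line. Sequencing kits are named without being tied to single libraries, so whether kit went with group was not tested. The labels do not say that replicates came from separate cultures. The p-values therefore reflect only how far these samples differ among themselves, which may be technical.

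PGE2 is made in steps. Cytosolic phospholipase A2 frees arachidonic acid from membranes, the cyclooxygenases PTGS1 and PTGS2 turn it into PGH2, and terminal synthases turn PGH2 into PGE2. ABCC4 exports PGE2, which acts on EP receptors outside the cell, and HPGD oxidises it to an inactive product. In airway epithelium PTGS2 and PTGES are known as the inducible steps, and EP4 and the β2-adrenoceptor both raise cAMP, the messenger that PDE4 breaks down.

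Values are normalised TPM, an abundance per transcript length adjusted between libraries by the authors, so levels of different genes can be set side by side. Across the 40 libraries PTGES3 averaged 317 TPM, above 98.2% of the genes in the table. PTGES2 averaged 29.6 TPM, ABCC4 15.4 TPM, PTGES 4.44 TPM and PLA2G4A 1.23 TPM. HPGD averaged 0.183 TPM and PTGS2 0.159 TPM, above only 4.5% and 3.6% of genes. No member was listed at 0 in any library. The group means of PTGES spanned 1.05 on the log2(TPM + 1) scale, and those of the other 6 members spanned between 0.06 (PTGES3) and 0.19 (ABCC4).

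Column totals of the 40 libraries lay between 956888 and 1091466, and no read counts were used, so sequencing depth is unknown. Vehicle replicate 3 stood apart: the SD over genes of its deviation from its group mean was 0.209 on the log2 scale, against 0.0990 to 0.169 in the other 39 libraries. Of 12 airway epithelial and basal markers, 5 averaged at least 1 TPM (KRT7, KRT8, KRT17, KRT18 and ITGA6), EPCAM, CDH1 and CDH3 lay below that, and KRT5, KRT14, KRT19 and TP63 were not analysed here. Of 11 mesenchymal markers 9 averaged at least 1 TPM, summing to between 2563 and 2714 TPM by group. CD68 was the only one of 10 leukocyte markers at 1 TPM or more, and none of the 6 endothelial markers reached 1 TPM. The libraries thus held keratins beside most of the mesenchymal markers, with EPCAM and CDH1 low. In bulk RNA, fewer cells of a type and less RNA per cell cannot be told apart.

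The promoter windows printed are those of PTGES and PTGS2, a choice by name and not by a rule over all members. They run from 250 bases before to 50 after the transcription start in RefSeq (GRCh38.p14), at chr9:129752993-129753292 for PTGES and chr1:186680374-186680673 for PTGS2, both on the minus strand, and are written 5′ to 3′ on the gene's strand. Capitals mark the EGR motif in PTGES and the short cAMP-response motif in PTGS2.
PTGES: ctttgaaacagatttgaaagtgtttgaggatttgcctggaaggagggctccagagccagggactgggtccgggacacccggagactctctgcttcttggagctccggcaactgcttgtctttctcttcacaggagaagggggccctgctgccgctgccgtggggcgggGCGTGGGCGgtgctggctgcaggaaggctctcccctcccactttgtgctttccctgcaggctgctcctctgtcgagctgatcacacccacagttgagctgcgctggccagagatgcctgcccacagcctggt
PTGS2: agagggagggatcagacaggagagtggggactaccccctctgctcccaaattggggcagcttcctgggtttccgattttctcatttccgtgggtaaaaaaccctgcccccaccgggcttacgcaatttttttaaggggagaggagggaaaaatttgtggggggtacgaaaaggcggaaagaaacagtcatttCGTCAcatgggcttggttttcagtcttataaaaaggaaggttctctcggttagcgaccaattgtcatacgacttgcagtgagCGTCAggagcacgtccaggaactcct

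The motifs searched, on both strands, were the full cAMP-response element TGACGTCA, its short form TGACG (read as CGTCA on the other strand, and contained in the full element), and the EGR site GCGTGGGCG (CGCCCACGC on the other strand). The PTGES window held 1 EGR site, 82 bases before the start, and neither cAMP-response form. The PTGS2 window held 2 short cAMP-response motifs, 58 bases before and 24 bases after the start, and no EGR site. Over all 35116 promoter windows the full element occurred in 1.85%, the short form in 24.6% and the EGR site in 0.795%. All 8 members had a window, 12 in all. The short form also occurred in windows of PTGES3, ABCC4 and HPGD, and PTGES2 held an EGR site 147 bases before a start. A letter match describes the sequence and says nothing about occupancy.

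PTGES is the inducible microsomal PGE synthase that works downstream of cyclooxygenase. Among the 5 members tested, it was the 1 called higher in the limma model with 1 mean per group and no term for replicate number. Vilanterol, ONO at 1 uM, both of these with RNO, and ONO at 1 nM with RNO gave higher levels than vehicle. In the 4 vilanterol libraries PTGES stood at 7.32, 6.96, 6.05 and 7.24 TPM, in the 4 ONO 1 uM libraries at 5.80, 4.30, 4.80 and 5.09 TPM, and in the 4 vehicle libraries at 3.37, 2.94, 2.70 and 2.39 TPM. All vilanterol libraries lay above all ONO 1 uM libraries, and these lay above all vehicle libraries. Over all genes tested, groups failed to overlap for 14.9% with vilanterol against vehicle, 8.38% with ONO 1 uM against vehicle and 6.86% for ONO 1 uM against vilanterol. Against vehicle, PTGES was 2.42-fold higher with vilanterol (log2 fold change 1.04, 95% interval 0.84 to 1.23, limma adjusted p = 1.28e-10) and 1.75-fold higher with ONO at 1 uM (0.64, interval 0.45 to 0.83, adjusted p = 8.85e-06). Log2 fold changes are on the log2(TPM + 1) scale, which understates the change of a gene at this level.

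**Figure D1:**
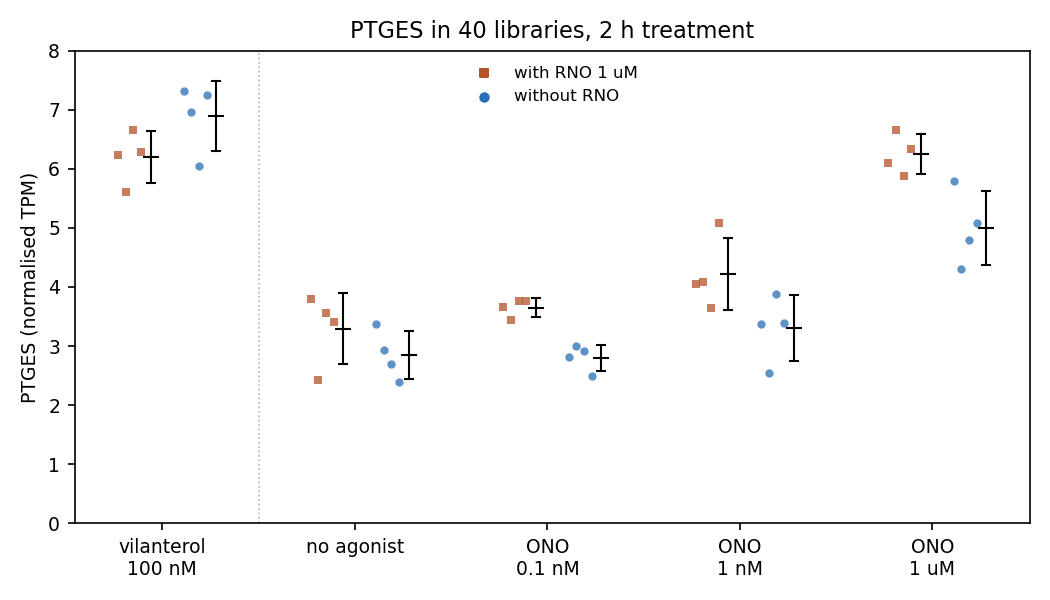
PTGES level (vertical axis, normalised TPM) in each of the 40 libraries by agonist (horizontal axis), with RNO (squares) and without it (circles); black bars are the mean and SD of 4 libraries. Vilanterol averaged 6.20 TPM with RNO and 6.89 TPM without it, and without RNO the ONO series averaged 2.85 TPM at no agonist, 2.80 at 0.1 nM, 3.297 at 1 nM and 4.997 at 1 uM.

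The lower ONO concentrations gave no call for PTGES. Levels were 2.81, 2.998, 2.91 and 2.49 TPM with ONO at 0.1 nM (log2 fold change against vehicle -0.01, 95% interval -0.21 to 0.18, limma adjusted p = 0.987). They were 3.37, 2.54, 3.88 and 3.40 TPM with ONO at 1 nM (0.16, interval -0.04 to 0.35, adjusted p = 0.468). Both sets overlapped the vehicle libraries. ONO at 1 uM was 1.52-fold higher than ONO at 1 nM, with no overlap (0.48, interval 0.29 to 0.68, adjusted p = 0.00149), while 1 nM against 0.1 nM was not called (0.17, interval -0.03 to 0.36). Fitted on these 2 groups alone, the 1 uM against 1 nM comparison had an adjusted p of 0.0608. Over all genes 2.11% were called and 6.35% did not overlap between 1 uM and 1 nM, and 0.318% were called between 1 nM and 0.1 nM.

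RNO alone left PTGES at 3.79, 2.42, 3.55 and 3.41 TPM, overlapping vehicle (log2 fold change 0.15, 95% interval -0.04 to 0.35, limma adjusted p = 0.509). With RNO added, the libraries read 3.66, 3.43, 3.76 and 3.76 TPM for ONO at 0.1 nM, and 4.05, 4.08, 3.65 and 5.09 TPM for ONO at 1 nM. At ONO 1 uM with RNO they read 6.09, 6.67, 5.88 and 6.34 TPM, and with vilanterol and RNO 6.23, 5.61, 6.66 and 6.29 TPM. All 16 libraries that combined an agonist with RNO lay above the 4 vehicle libraries. Over all genes tested the share that did not overlap vehicle was 3.96% for ONO 0.1 nM with RNO, 5.92% for ONO 1 nM with RNO, 14.2% for ONO 1 uM with RNO and 14.8% for vilanterol with RNO. Against vehicle, PTGES was called 1.48-fold higher with ONO 1 nM and RNO (0.44, interval 0.24 to 0.63, adjusted p = 0.00382), 2.19-fold higher with ONO 1 uM and RNO (0.92, interval 0.72 to 1.11, adjusted p = 3.03e-09) and 2.2-fold higher with vilanterol and RNO (0.91, interval 0.71 to 1.10, adjusted p = 3.13e-09). ONO 0.1 nM with RNO was 1.28-fold above vehicle but was not called (0.28, interval 0.08 to 0.47, adjusted p = 0.209). Fitted on its 2 groups alone, the ONO 1 nM with RNO call against vehicle was lost (adjusted p = 0.11).

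The effect of adding RNO to each agonist was tested next. PTGES was 1.30-fold higher in ONO 0.1 nM with RNO than in ONO 0.1 nM alone, and 1.25-fold higher in ONO 1 uM with RNO than in ONO 1 uM alone, with no overlap in either pair. The 3 ONO concentrations gave log2 differences of 0.29, 0.28 and 0.28 from low to high, whose 95% intervals lay within 0.08 and 0.49, and none was called by limma (adjusted p = 0.287, 0.501 and 0.278). With vilanterol the difference was -0.13 (interval -0.33 to 0.06). Non-overlap held for 4.06% of all genes at ONO 0.1 nM and for 5.06% at 1 uM. Adding RNO called 0.723%, 0.238% and 0.604% of all genes at the 3 ONO concentrations from low to high, and 0% with vilanterol (0 genes by limma, 180 at an unadjusted p under 0.05). PTGES was the 1 member of the 5 tested with an unadjusted p under 0.05 at each ONO concentration, and no member had one with vilanterol. Of all 12591 genes tested, 691, 555 and 973 had such a p at the 3 ONO concentrations from low to high. The ONO 1 nM pair overlapped. The interaction with RNO was not called for any agonist, at 0.14, 0.13 and 0.13 for ONO from low to high and -0.28 for vilanterol (adjusted p between 0.761 and 0.877). The shares of all genes with a called interaction were 0.135%, 0% and 0.0635% for ONO from low to high and 0.00794% for vilanterol, and at ONO 1 nM 1108 genes had an unadjusted p under 0.05.

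Seen from RNO alone, adding ONO at 1 uM gave 1.90-fold more PTGES (log2 fold change 0.77, 95% interval 0.57 to 0.96, limma adjusted p = 1.75e-07), and adding vilanterol 1.88-fold more (0.76, interval 0.56 to 0.95, adjusted p = 1.82e-07). ONO at 0.1 nM (0.13, interval -0.07 to 0.32) and 1 nM (0.29, interval 0.09 to 0.48, adjusted p = 0.175) gave no call over RNO. The ONO 1 uM with RNO libraries and the vilanterol with RNO libraries all lay above the RNO libraries, as 15.1% and 17.6% of all genes did not overlap there. Adding ONO at 0.1 nM, 1 nM or 1 uM to RNO called 0.627%, 1.68% and 12% of all genes, and adding vilanterol 15.5%.

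The 2 agonists at their maximal concentrations differed without RNO. PTGES in ONO 1 uM was 0.725 of its level in vilanterol (log2 difference -0.40, 95% interval -0.59 to -0.21, limma adjusted p = 0.0147), in a comparison that called 2.14% of all genes. That call was lost without ONO 1 uM replicate 2 (adjusted p = 0.104), vilanterol replicate 1 (0.0603) or vilanterol replicate 4 (0.0556), and in a fit of the 2 groups alone (0.0501). In the presence of RNO the difference was 0.01 (interval -0.18 to 0.20), and limma called 0% of all genes, with 306 at an unadjusted p under 0.05.

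Ordered by mean, PTGES read 2.80 ± 0.221 TPM with ONO 0.1 nM, 2.85 ± 0.413 with vehicle, 3.29 ± 0.602 with RNO, 3.30 ± 0.559 with ONO 1 nM, 3.65 ± 0.154 with ONO 0.1 nM and RNO, 4.22 ± 0.614 with ONO 1 nM and RNO, 4.997 ± 0.629 with ONO 1 uM, 6.20 ± 0.438 with vilanterol and RNO, 6.24 ± 0.339 with ONO 1 uM and RNO and 6.89 ± 0.585 with vilanterol (SD, n = 4 each). Each group overlapped its neighbours in this order. Groups explained 90.9% of the variance of PTGES and replicate numbers 1.58%. Without vehicle replicate 3 the 5 calls against vehicle stayed, with log2 fold changes of 1.02 for vilanterol, 0.62 for ONO 1 uM, 0.42 for ONO 1 nM with RNO, 0.90 for ONO 1 uM with RNO and 0.89 for vilanterol with RNO, the highest adjusted p being 0.0156. The airway markers moved in both directions. KRT17, a keratin, rose in the same 5 comparisons and also with ONO 1 nM and with ONO 0.1 nM and RNO, averaging 1323 TPM with vilanterol, 920.5 with ONO 1 uM and 307 with vehicle. KRT18, another keratin, fell in the same 5 comparisons and with ONO 1 nM, averaging 272 TPM with vilanterol, 267 with ONO 1 uM and 362 with vehicle. With vilanterol, ONO 1 uM and RNO, and vilanterol and RNO, KRT8 fell (336, 331 and 338 TPM, against 425 TPM in vehicle) and the integrin ITGA6 rose (43.3, 44.2 and 46.1 TPM, against 37.8 TPM in vehicle), while KRT7 fell with ONO 1 nM. The summed level of the 8 measured airway markers was 1993 TPM with vilanterol, 1584 with ONO 1 uM, 1263 with ONO 1 nM and RNO, 1891 with ONO 1 uM and RNO and 1898 with vilanterol and RNO, against 1149 TPM in vehicle. Without KRT17 the sum was 670 TPM with vilanterol, 664 with ONO 1 uM, 681 with ONO 1 nM and RNO, 657 with ONO 1 uM and RNO and 673 with vilanterol and RNO, against 842 TPM in vehicle. COL3A1, a mesenchymal collagen, was also higher in 4 of the 5, all but ONO 1 nM with RNO. It was the only 1 of 9 tested mesenchymal markers called there, in comparisons that called between 7.21% and 18.4% of all genes. The part of these markers in the PTGES result was not tested.

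Set against all genes, PTGES was 1 of 5 tested members called in each of the 5 comparisons against vehicle. The share of all 12591 tested genes called was 17.7% with vilanterol, 7.21% with ONO 1 uM, 3.45% with ONO 1 nM and RNO, 15.8% with ONO 1 uM and RNO and 18.4% with vilanterol and RNO. With RNO alone, ONO 1 nM and ONO 0.1 nM with RNO 0 of 5 members were called, where 0.238%, 1.01% and 1.12% of all genes were. In the same order, 0, 1 and 1 of the 5 had an unadjusted limma p under 0.05. So did 12.3%, 13.4% and 11.2% of all genes. ONO 0.1 nM called 0 members and 0% of genes, with 0 members and 736 genes at an unadjusted p under 0.05. The median log2 fold change of the 5 members ranged from -0.06 (ONO 1 nM) to 0.05 (ONO 1 uM with RNO) over the 9 comparisons, and that of all genes from -0.01 to 0.00.

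The 5 genes whose group means followed PTGES most closely over the 10 groups were ZNF761 (Pearson r = 0.996), HDAC5 (0.995), ARRDC3 (0.995), SNHG12 (0.994) and HEXIM1 (0.994). They were picked as the highest r among all genes tested, so the values describe and do not test. ARRDC3, an arrestin-domain protein, averaged 23.4 TPM with vilanterol, 17.5 TPM with ONO 1 uM and 9.33 TPM with vehicle. HDAC5, a class IIa histone deacetylase, averaged 32.3 TPM with vilanterol, 26.1 TPM with ONO 1 uM and 18.0 TPM with vehicle. HEXIM1, an inhibitor of the elongation factor P-TEFb, averaged 45.8 TPM with vilanterol, 36.6 TPM with ONO 1 uM and 24.3 TPM with vehicle.

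PTGS2, the inducible cyclooxygenase that commits arachidonic acid to prostaglandins, lay near the bottom of the measured range and under the mean of 1 TPM required for the model over all genes. Its 4 values were 0.181, 0.304, 0.186 and 0.267 TPM with vilanterol, 0.240, 0.210, 0.182 and 0.379 TPM with vilanterol and RNO, and 0.127, 0.166, 0.0753 and 0.136 TPM with vehicle. Both vilanterol groups lay wholly above vehicle, in comparisons where 14.9% and 14.8% of the genes of at least 1 TPM, PTGS2 not among them, did not overlap. Vilanterol was 1.86-fold and vilanterol with RNO 2.01-fold above vehicle, each with an exact two-sided permutation p of 0.0286, the smallest that 4 against 4 libraries allow. Adjusted over the 9 comparisons with vehicle, both stood at 0.129 and neither passed. With no other comparison at that smallest p, an adjusted value under 0.05 could not be reached. The adjusted exact test therefore cannot decide whether PTGS2 differed. ONO 1 uM with RNO gave 0.230, 0.190, 0.159 and 0.269 TPM, 1.68-fold above vehicle with 1 library inside the vehicle range (exact permutation p = 0.0571, adjusted 0.171).

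ONO 1 uM alone gave 0.0917, 0.230, 0.0817 and 0.111 TPM of PTGS2, around the vehicle values (ratio of means 1.02, exact permutation p = 0.971). The other 5 treatments had exact p between 0.457 and 0.857. In order of means, the 7 lowest groups ran from 0.103 TPM (RNO) to 0.143 TPM (ONO 0.1 nM), and the next was ONO 1 uM with RNO at 0.212 TPM. This step was found by ranking the same means, so it describes and does not test. The lowest ONO 1 uM with RNO library, at 0.159 TPM, still lay inside 3 lower-ranked groups. These were vehicle (up to 0.166 TPM), ONO 1 nM with RNO (up to 0.167 TPM) and ONO 1 uM (up to 0.230 TPM). Kept in the limma model by dropping the minimum level, PTGS2 passed against vehicle with vilanterol (log2 difference 0.13, adjusted p = 0.0367) and with vilanterol and RNO (0.15, adjusted p = 0.0141). It did not pass with ONO 1 uM and RNO (0.11, adjusted p = 0.114). Of all 15788 genes, that fit called 2220, 2324 and 1984 against vehicle in the same order. Set against RNO alone in that fit, PTGS2 passed with ONO 1 uM and RNO (0.14, adjusted p = 0.0425) and with vilanterol and RNO (0.18, adjusted p = 0.0033). With ONO 0.1 nM or 1 nM and RNO it did not pass against RNO. Against RNO that fit called 58, 205 and 1541 genes with ONO from low to high and 2023 with vilanterol. Without vehicle replicate 3, which held the lowest vehicle value, the 3 differences from vehicle were 0.11, 0.13 and 0.08. The exact adjusted p was then 0.257 for each, and with only 35 splits of 3 against 4 libraries it says nothing about stability. At these levels, with no read counts, a fold rests on few transcripts.

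HPGD, the dehydrogenase that inactivates PGE2, was as low. Its group means lay between 0.150 TPM (vilanterol) and 0.208 TPM (ONO 0.1 nM), with vehicle at 0.186 ± 0.0308 TPM (SD, n = 4). Every treatment overlapped vehicle, and exact permutation p ran from 0.286 to 0.971. The ratio to vehicle lay between 0.806 and 1.11.

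**Figure D2:**
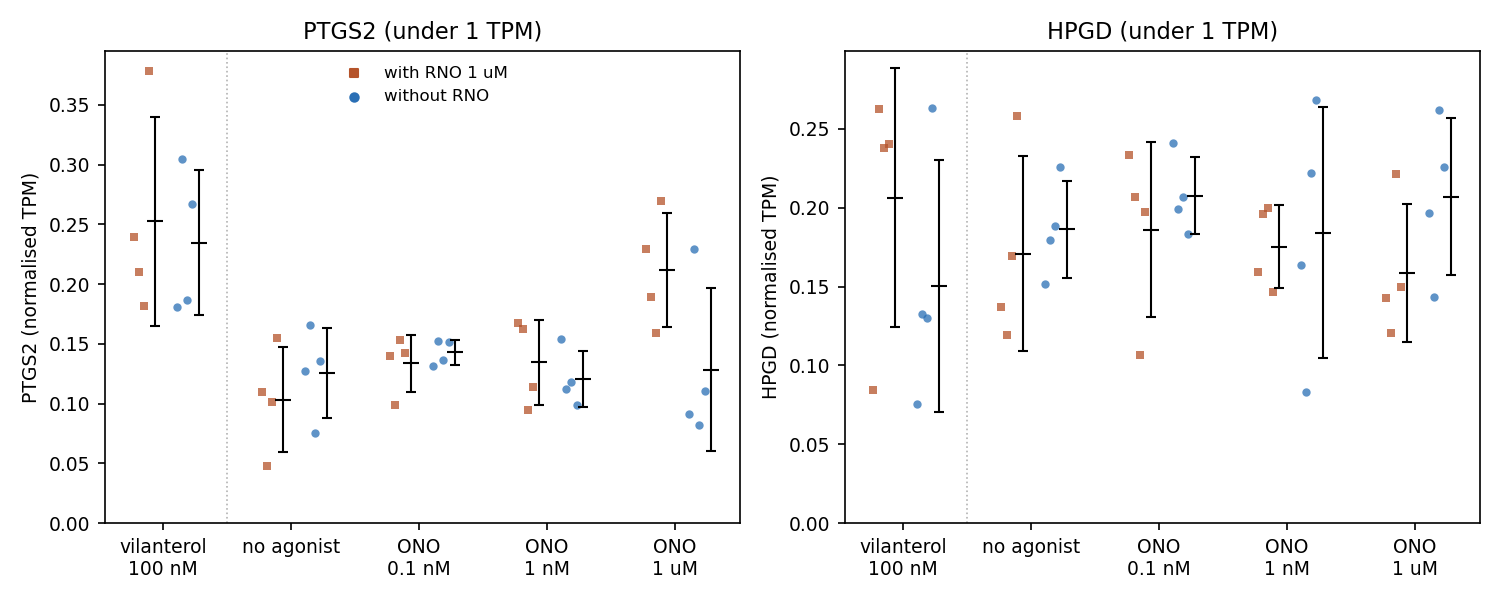
PTGS2 (left) and HPGD (right) in each library (vertical axes, normalised TPM) by agonist (horizontal axes), with RNO (squares) and without it (circles); black bars are the mean and SD of 4 libraries. For PTGS2 both vilanterol groups, from 0.181 TPM up, lie above the vehicle libraries, which reach 0.166 TPM, whereas the HPGD groups overlap throughout.

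PLA2G4A, the cytosolic phospholipase A2 that frees arachidonic acid, was not called in any of the 25 comparisons. The lowest, median and highest library over the series were 0.854, 1.17 and 1.68 TPM. Vilanterol libraries stood at 1.18, 0.975, 1.15 and 1.54 TPM and ONO 1 uM libraries at 1.25, 1.15, 1.19 and 1.62 TPM, against 0.854, 1.20, 1.40 and 1.68 TPM in vehicle. The vehicle libraries spanned the whole range of the series. Log2 fold changes against vehicle lay between -0.10 and 0.05 (limma adjusted p between 0.718 and 0.955), and the 95% intervals reached from -0.30 to 0.25.

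PTGES3, also known as p23, is a co-chaperone of HSP90 and a cytosolic PGE synthase, and was the most abundant member. Its group means stayed between 311 TPM (ONO 0.1 nM) and 326 TPM (vehicle). Vilanterol libraries held 324, 311, 316 and 299 TPM, ONO 1 uM libraries 330, 308, 324 and 316 TPM, and vehicle libraries 328, 298, 371 and 309 TPM, so vehicle replicate 3 was the highest of all 40. Against vehicle the log2 fold change was between -0.06 and -0.02 over the 9 treatments (limma adjusted p between 0.415 and 0.859). Without vehicle replicate 3 it was between 0.00 and 0.04. PTGES3 has 5 named pseudogenes, so reads may be shared with these copies and its level is uncertain to that extent.

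PTGES2, a membrane-associated PGE synthase, had its highest group mean in vehicle. ONO 1 nM libraries held 29.3, 29.1, 27.8 and 27.7 TPM, ONO 1 uM libraries 31.3, 27.7, 28.9 and 26.9 TPM, and vehicle libraries 32.2, 30.1, 35.9 and 29.7 TPM. ONO 1 nM lay wholly below vehicle, at 0.891 of its mean, as 4.22% of all genes lay wholly to 1 side of vehicle there, but the difference was not called (log2 fold change -0.16, 95% interval -0.30 to -0.01, limma adjusted p = 0.327). Over the 9 treatments the values lay between -0.16 and -0.08 (adjusted p between 0.187 and 0.815), and without vehicle replicate 3 between -0.10 and -0.02. An antisense gene, PTGES2-AS1, overlaps the locus and has its own row, and whether reads were assigned by strand is not given in the sources used here.

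ABCC4 (MRP4), the ATP-driven exporter of PGE2 and of cAMP, had its lowest mean in vehicle. Vilanterol with RNO gave 17.5, 16.9, 16.3 and 15.7 TPM, ONO 1 uM with RNO 17.3, 16.2, 16.7 and 14.7 TPM, and vehicle 16.7, 15.2, 12.5 and 13.6 TPM. The groups overlapped, and the values against vehicle were 0.19 for vilanterol with RNO (95% interval 0.05 to 0.33, limma adjusted p = 0.0565) and 0.16 for ONO 1 uM with RNO (interval 0.02 to 0.30, adjusted p = 0.126). Neither was called in this fit. The other 7 treatments lay between 0.03 and 0.11. A limma fit with a term for replicate number, the replicate block, called both (adjusted p = 0.000356 and 0.00267, in the same order). It also called vilanterol alone (0.11, adjusted p = 0.0291). Of all 12591 genes tested, the block called 4029, 3739 and 3931 in these comparisons, in the same order. With the block and without vehicle replicate 3, both combinations with RNO stayed called, at 0.12 (adjusted p = 0.00231) and 0.09 (adjusted p = 0.0245). There 3307 and 2909 of all genes were called. What the numbers share is not given, so the block was kept as an alternative. Without the block, leaving out single vehicle libraries moved both values. Without vehicle replicate 3, the lowest library of the series, they were 0.12 for vilanterol with RNO (adjusted p = 0.284) and 0.09 for ONO 1 uM with RNO (adjusted p = 0.485). Without vehicle replicate 1 both passed, at 0.25 (adjusted p = 0.00798) and 0.22 (adjusted p = 0.0215). Vilanterol with RNO also passed without vehicle replicate 2 (0.0433) and without its own replicate 4 (0.0484).

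**Figure D3:**
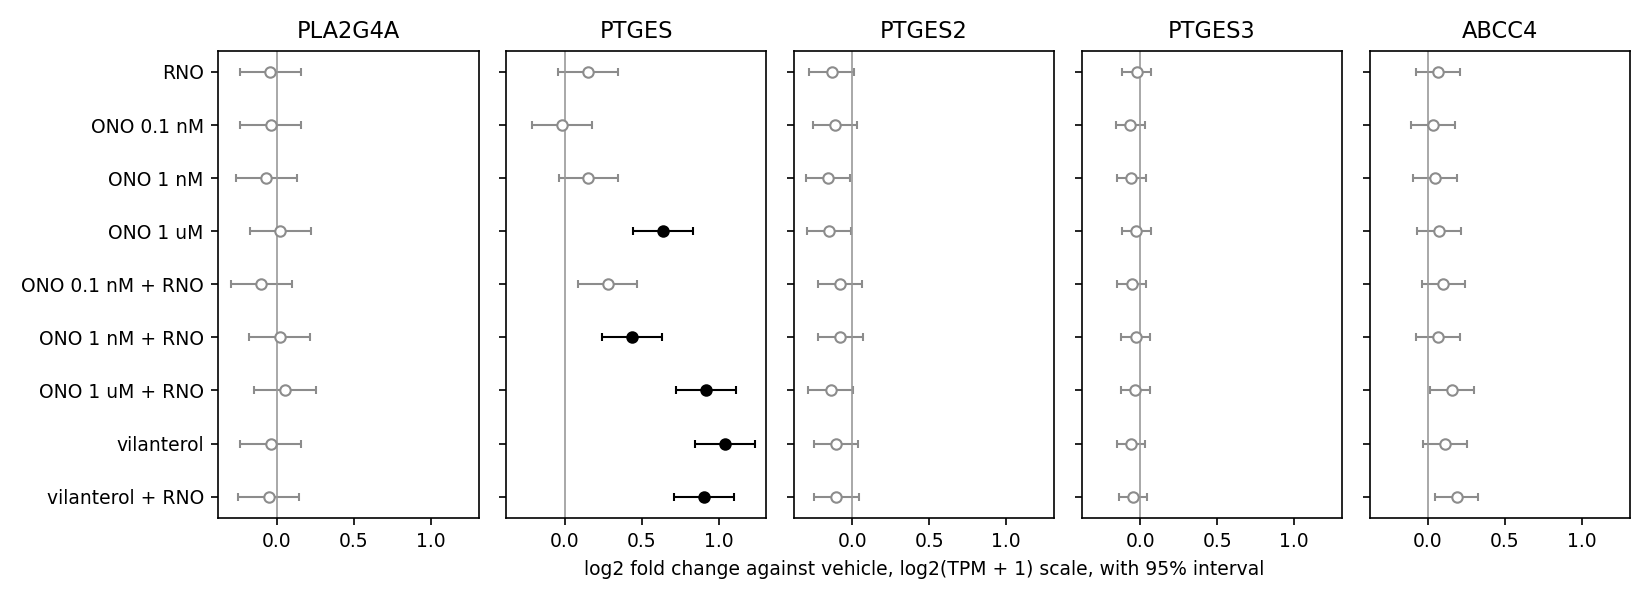
Log2 fold change against vehicle (horizontal axis, log2(TPM + 1) scale) with its 95% interval for the 5 members tested by limma in 9 treatments (vertical axis); filled points are called at an adjusted p under 0.05. The 5 filled points are all PTGES, from 0.44 to 1.04, and the other 4 members stay between -0.16 and 0.19.

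Replicate number went with the level of several members more than treatment did. It carried 56.9% of the variance of PLA2G4A, 54.3% of PTGES3, 53% of ABCC4 and 42.9% of PTGES2, and groups carried 12.4%, 10.5%, 27.8% and 19.5% of the variance of the same genes. ABCC4 was highest in replicate 1 in 10 of 10 groups, PTGES3 in 9 of 10 and PTGES2 in 7 of 10, while PLA2G4A was highest in replicate 4 in 8 of 10. PTGS2 and HPGD showed less of this, with 8.58% and 19% between numbers. The labels do not say what the number stands for.

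**Figure D4:**
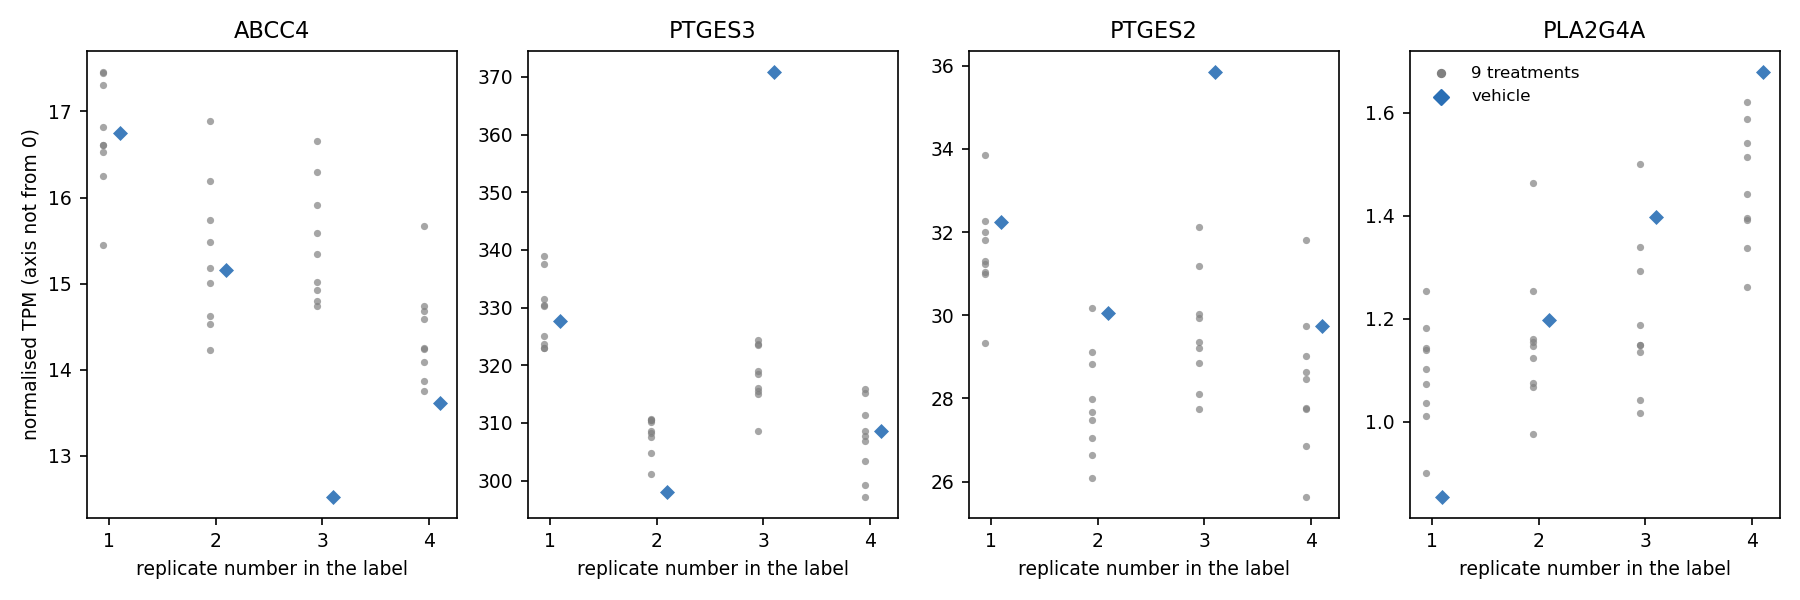
Level of ABCC4, PTGES3, PTGES2 and PLA2G4A (vertical axes, normalised TPM, not starting at 0) by the replicate number in the sample label (horizontal axes) for the 9 treatments (circles) and vehicle (diamonds). ABCC4, PTGES3 and PTGES2 averaged 16.7, 329 and 31.6 TPM in replicate 1 and 14.4, 307 and 28.5 TPM in replicate 4, and the vehicle replicate 3 library sits apart at 371 TPM of PTGES3 and 12.5 TPM of ABCC4.

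Other genes of the pathway were counted from lists. Of 18 gene symbols for phospholipase A2 and fatty acid supply 10 were tested. Of 9 symbols for other prostanoid synthases 3 were (AKR1B1, CBR1 and FAM213B). PLA2G16 is also listed as PLAAT3, and FAM213B also as PRXL2B, so the symbols outnumber the genes. Limma called 0 of either list in the 9 comparisons with vehicle, and at most 3 of the 10 and 1 of the 3 had an unadjusted p under 0.05. Both maxima were reached with vilanterol and RNO, where 30.5% of all genes had such a p, so these shares are near the background. Of 11 leukotriene and lipoxygenase genes 2 were tested (LTA4H and LTB4R), with 0 called and 0 at an unadjusted p under 0.05.

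Among 12 symbols for other clearance and transport genes, which list ZADH2 also as PTGR3, 7 were tested and 2 were called against vehicle. Of the 7, limma called 1 higher and 1 lower with vilanterol, where 17.7% of all genes were called. It called 1 of 7 with vilanterol and RNO and 1 of 7 with ONO 1 uM and RNO, where 18.4% and 15.8% of all genes were. SLCO4A1, an organic anion transporter, averaged 4.20 ± 1.17 TPM with vilanterol, 3.80 ± 1.14 with vilanterol and RNO and 3.82 ± 1.32 with ONO 1 uM and RNO, against 1.61 ± 0.463 TPM with vehicle (SD, n = 4 each). It was higher in those 3 treatments (log2 fold changes 0.98, 0.86 and 0.85, limma adjusted p = 0.00116, 0.00391 and 0.00507). Both vilanterol groups lay above vehicle, in comparisons where 14.9% (vilanterol) and 14.8% (vilanterol with RNO) of all genes did not overlap. ONO 1 uM with RNO overlapped vehicle by its lowest library of 2.06 TPM. ZADH2, a prostaglandin reductase, was lower with vilanterol, at 4.80 ± 0.142 TPM, against 5.48 ± 0.205 TPM with vehicle (-0.16, adjusted p = 0.00747). SLCO2A1, the prostaglandin uptake transporter, averaged under 1 TPM and was not tested.

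Of 10 genes on the receptor list 4 were tested. Of the 4, limma called 1 higher and 1 lower with vilanterol, where 17.7% of all genes were called. It called 1 of 4 with vilanterol and RNO, where 18.4% of all genes were. PTGER4, which encodes EP4, averaged 1.06 ± 0.137 TPM with vilanterol, 1.14 ± 0.236 with vilanterol and RNO and 1.24 ± 0.0848 with ONO 1 uM, against 1.57 ± 0.0977 TPM with vehicle (SD, n = 4 each). It was lower with vilanterol (log2 fold change -0.32, limma adjusted p = 0.00778) and with vilanterol and RNO (-0.27, adjusted p = 0.0248). PTGFRN, a membrane protein that associates with the prostaglandin F receptor, was higher with vilanterol, at 6.95 ± 0.799 TPM, against 5.61 ± 1.30 TPM with vehicle (0.29, adjusted p = 0.0445). By group, PTGFR averaged 1.31 to 1.56 TPM, TBXA2R 1.91 to 2.08 TPM, PTGER2 0.694 to 1.11 TPM, PTGIR 0.251 to 0.387 TPM and PTGER3 0.0367 to 0.0911 TPM.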

How the data were processed

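RNA of BEAS-2B cells was read from directional poly(A) libraries, per the labels' protocols. Per the submitters' processing notes the tools were bcl2fastq 2.18.0.12, kallisto and sleuth, with builds GRCh37 and hg19, and no version of the last 2 tools is given in the sources used here. What the authors deposited is a normalised signal, TPM adjusted between samples, for 15788 genes in 40 libraries. TPM had been assumed; the unequal column totals are not those of plain TPM.

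Groups and replicate numbers came from the sample labels. Values were transformed to log2(TPM + 1). The model covered the 12591 genes that averaged 1 TPM or more. It was fitted in R 4.3.3 with limma 3.58.1 and the data.table package (1.17.8), with 1 mean per group, an intensity trend and 30 residual degrees of freedom. Calls needed an adjusted p (Benjamini-Hochberg) under 0.05 within each of 25 comparisons, 9 of which are set against the same vehicle libraries. Members under 1 TPM had exact two-sided permutation tests over 70 splits of 8 libraries, in Python 3.11.15 with pandas 2.3.3 and numpy 2.4.6; figures used matplotlib 3.10.9. The model was tested on simulated data with independent noise and no part shared by replicate number. That test cannot show how reliable the calls in these libraries are. Replicates are given as mean ± SD or by library. Motifs were counted in RefSeq windows (GRCh38.p14) matched by gene name, and no coordinates were converted.

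All members and list counts are given. Other pathway genes are named where called against vehicle, receptor levels always, and the 5 most similar genes where a member's group means span over 1 on the log2 scale. Members, lists and comparisons were chosen with earlier results of these data known. Alternatives were another pseudocount of 0.1, no minimum level, other scalings, library weights, a replicate block, the compared groups alone, and leaving out each library.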

Additional observations from a re-analysis of the deposited data

Results flagged for a closer look

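Of 70 sets of 4 libraries, 1 for each of the 7 members in each of the 10 groups, 1 held a library far from the others. HPGD in replicate 1 of vilanterol with RNO stood at 0.0841 TPM, against 0.263, 0.238 and 0.241 TPM in the other libraries of that group. Its gap to the nearest library was 0.863 of the range of the group, above Dixon's 95% critical value for 4 samples. Such a gap appears by chance in about 1 in 20 groups.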

How the results depend on the processing

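No alternative turned a called direction round. PTGES kept its calls against vehicle with vilanterol, ONO 1 uM and either of these with RNO under all alternatives run, with adjusted p up to 0.00649. The number of members called, 1 in these comparisons, became 2 when no minimum level was applied, with vilanterol and with vilanterol and RNO, against vehicle, through PTGS2. It also became 2 with ONO 1 uM and RNO and with vilanterol and RNO against RNO, again through PTGS2. Of all 15788 genes, the fit with no minimum level called 2220 and 2324 against vehicle and 1541 and 2023 against RNO, in the same order. Equal library totals gave 2 for vilanterol with RNO against vehicle, through ABCC4 (0.22, adjusted p = 0.0489), where 2034 of all genes were called. Fitting the 2 groups alone gave 0 members for ONO 1 nM with RNO against vehicle, ONO 1 uM against vilanterol and ONO 1 uM against ONO 1 nM, where the full model gave 1. Leaving out 1 library gave 1 to 2 members for ONO 1 uM with RNO and for vilanterol with RNO against vehicle, and 0 to 1 for ONO 1 uM against vilanterol.

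A replicate block was fitted although the labels do not say what the numbers share. Same-numbered libraries of different groups correlated at 0.0204 to 0.542 (median 0.259) in their deviations from group means, differently numbered ones at a median of -0.0846, and 40 of 40 libraries correlated best with their own number, a hint from the data, not the design. Deviations from a mean cancel within each group, so the negative median follows from the positive one and is no separate evidence. With the block, members called against vehicle were 1 for ONO 1 nM, 2 for ONO 1 uM, 2 for vilanterol, 3 for ONO 1 uM with RNO and 2 for vilanterol with RNO, and 2 for vilanterol with RNO against RNO. Of all 12591 genes tested, 1066, 2090, 3931, 3739, 4029 and 3258 were called in the same order. The added calls against vehicle were PTGES2, lower with ONO 1 nM, ONO 1 uM and ONO 1 uM with RNO (-0.16, -0.15 and -0.14; adjusted p = 0.05 after rounding, 0.0401 and 0.037), and ABCC4, higher with vilanterol, ONO 1 uM with RNO and vilanterol with RNO (0.11, 0.16 and 0.19; adjusted p = 0.0291, 0.00267 and 0.000356). With the block and without vehicle replicate 3, 2 members each were called for ONO 1 uM with RNO and vilanterol with RNO, ABCC4 at 0.09 and 0.12, and PTGES2 had no call (adjusted p = 0.273, 0.213 and 0.22 in the same 3 comparisons). For ONO 1 uM with RNO and vilanterol with RNO that fit called 2909 and 3307 of all genes. With the block and no minimum level, an alternative chosen after seeing the data, PTGS2 had adjusted p = 0.0172 with vilanterol and 0.00632 with vilanterol and RNO.

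Over all genes, the block raised the calls against vehicle to 643 for RNO, 10 for ONO 0.1 nM, 1066 for ONO 1 nM, 2090 for ONO 1 uM and 3931 for vilanterol, where the model without it called 30, 0, 127, 908 and 2223. For ONO 0.1 nM, 1 nM and 1 uM with RNO and vilanterol with RNO it called 645, 1259, 3739 and 4029, and the model without it 141, 434, 1987 and 2322. Fits of the 2 groups alone called 0, 28, 359 and 912 genes for RNO, ONO 1 nM, ONO 1 uM and vilanterol, and 37, 144, 778 and 960 for the 4 combinations in the same order. Adding RNO to ONO at 0.1 nM, 1 nM and 1 uM gave 325, 151 and 464 calls with the block, 47, 9 and 24 from 2 groups alone and 166, 80 and 174 with library weights, against 91, 30 and 76. Adding ONO from low to high and vilanterol to RNO gave 330, 604, 2564 and 3258 with the block, against 79, 212, 1506 and 1957. ONO 1 uM gave 856 against vilanterol and 694 against ONO 1 nM with the block, and 269 and 266 without it. Called interactions rose to 324, 213 and 473 for ONO and 31 for vilanterol with the block, against 17, 0, 8 and 1. The cause was not tested. Unknown depth limits PTGS2 and HPGD most.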
